A study of Homo sapiens with 2 samples.

Results

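Metallothioneins are small cysteine-rich proteins that bind zinc, copper and cadmium, and the zinc transporters move zinc across membranes. In SW620 cells made to express the circular RNA CDR1AS, the array signals of most metallothionein genes were higher than in control cells, while those of the zinc transporter genes were within 2-fold, apart from 2 importers under one alternative background correction. The members were all probes whose annotated gene symbol names a metallothionein (MT1 isoforms, MT2A, MT3, MT4 and related pseudogenes), a zinc exporter of the SLC30A family, a zinc importer of the SLC39A family, or MTF1 or MTF2. They were 40 of 24459 gene probes and 38 of 18638 genes with a symbol, namely 12 metallothioneins, 10 exporters, 14 importers and the 2 MTF genes. Symbols alone decided membership, but the family was picked for description with its ratios already known, so its values are given as a description.

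The study compared one array of SW620 cells expressing CDR1AS with one array of SW620 cells carrying a control lentivirus. SW620 is an established colon carcinoma line from a lymph node metastasis, and both cultures grew in DMEM with 10% FBS under normal conditions. CDR1AS is a circular RNA with many sites for the microRNA miR-7. Total RNA was amplified, labelled with Cy5 and hybridised on one-colour arrays. Each group was 1 array of cells with an introduced vector, the labels do not say whether the cells were clones or pools, and the sources used here do not name the promoter of the vector. No value is given for CDR1AS itself, since no probe was matched to it, so these values do not check the labels of the arrays. Differences below are between 2 arrays, have no replicate error and no test. In RNA from a whole culture, a change in every cell and a change in a fraction of the cells cannot be told apart.

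When zinc in the cytosol rises, the zinc-sensing transcription factor MTF1 binds metal response elements in promoters and raises transcription of metallothionein genes and of the exporter gene SLC30A1. Metallothioneins then hold the metal. Exporters lower cytosolic zinc by moving it out of the cell or into organelles and vesicles, and importers raise it by moving zinc into the cytosol. Metallothionein genes also respond to cadmium, copper, oxidants, glucocorticoids and cytokines, and in intestinal cells they buffer absorbed zinc.

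The promoters of metallothionein genes are shown because these genes differed together between the arrays and because the metal response element is their shared regulatory motif. The 250 bases before the annotated start of each gene are from RefSeq on build GRCh38.p14, 5′ to 3′ on the strand of the gene. Capitals mark matches to the core TGCACNC or TGCGCNC on either strand, and none of the matches in these windows overlapped. The first 4 genes were past 2-fold on the arrays and SLC30A1, the exporter gene known as a target of MTF1, was not. The windows are chr16:56608334-56608583 (+) for MT2A, chr16:56682220-56682469 (+) for MT1X, chr16:56669564-56669813 (+) for MT1H, chr16:56651636-56651885 (+) for MT1B and chr1:211579162-211579411 (-) for SLC30A1.
MT2A: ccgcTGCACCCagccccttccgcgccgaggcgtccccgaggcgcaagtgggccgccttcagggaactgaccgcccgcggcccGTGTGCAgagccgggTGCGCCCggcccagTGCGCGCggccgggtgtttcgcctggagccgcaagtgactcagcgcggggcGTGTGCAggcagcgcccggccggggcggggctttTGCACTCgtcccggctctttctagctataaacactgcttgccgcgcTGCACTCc
MT1X: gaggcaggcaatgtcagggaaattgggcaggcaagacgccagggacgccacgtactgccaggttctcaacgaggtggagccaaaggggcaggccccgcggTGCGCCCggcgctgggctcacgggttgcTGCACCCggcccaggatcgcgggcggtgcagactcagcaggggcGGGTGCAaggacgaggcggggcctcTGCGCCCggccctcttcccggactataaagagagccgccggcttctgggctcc
MT1H: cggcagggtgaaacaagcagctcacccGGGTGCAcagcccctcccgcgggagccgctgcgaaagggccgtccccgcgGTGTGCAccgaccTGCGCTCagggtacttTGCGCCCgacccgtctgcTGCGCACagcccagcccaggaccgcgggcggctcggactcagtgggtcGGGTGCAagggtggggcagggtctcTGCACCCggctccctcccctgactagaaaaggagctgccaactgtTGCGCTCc
MT1B: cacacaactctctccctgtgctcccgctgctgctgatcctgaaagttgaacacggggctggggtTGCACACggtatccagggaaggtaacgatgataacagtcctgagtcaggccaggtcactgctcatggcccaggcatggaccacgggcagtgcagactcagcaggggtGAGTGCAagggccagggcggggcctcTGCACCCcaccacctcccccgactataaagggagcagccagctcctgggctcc
SLC30A1: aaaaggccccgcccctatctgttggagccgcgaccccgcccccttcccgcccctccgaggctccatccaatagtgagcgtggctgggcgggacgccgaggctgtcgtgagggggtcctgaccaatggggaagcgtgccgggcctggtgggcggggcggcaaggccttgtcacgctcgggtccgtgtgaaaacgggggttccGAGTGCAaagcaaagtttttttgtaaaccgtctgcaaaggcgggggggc

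Of the 38 member genes, 28 had such a window, among them 5 metallothionein genes. The core was found at 7 places before MT2A, 4 before MT1X, 8 before MT1H, 3 before MT1B and 3 before MT4. All 5 metallothionein windows therefore held at least 3 matches, a number reached by 1.05% of 35116 windows of the same length, and 24.8% of those windows held at least 1. Some genes have more than 1 annotated start and so more than 1 window. Among the transporters, 6 of 11 exporter windows and 5 of 19 importer windows held at least 1 match, and SLC30A1 held 1. The exporter gene SLC30A2, with a log2 ratio of −0.02 on the arrays, held 3, as many as MT1B. Metallothioneins without a window were MT1M, MT1F and MT3, which were measured and within 2-fold, and MT1E, MT1HL1, MT1P3 and MT2P1, which were past 2-fold. Whether the number of matches goes with the array ratio was not tested. MT1X, MT1H and MT1B shared a match from −53 to −47 relative to the start, and MT2A had one from −54 to −48. A second match, on the other strand, lay from −78 to −72 in MT1X and MT1H, from −79 to −73 in MT1B and from −88 to −82 in MT2A. The TATA box letters TATAAA, searched on the strand of the gene, began at −29 in MT2A and MT4 and at −30 in MT1X and MT1B, and were not in the MT1H window. Of all windows 6.8% held them. A match of letters does not show a bound site.

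**Figure D1:**
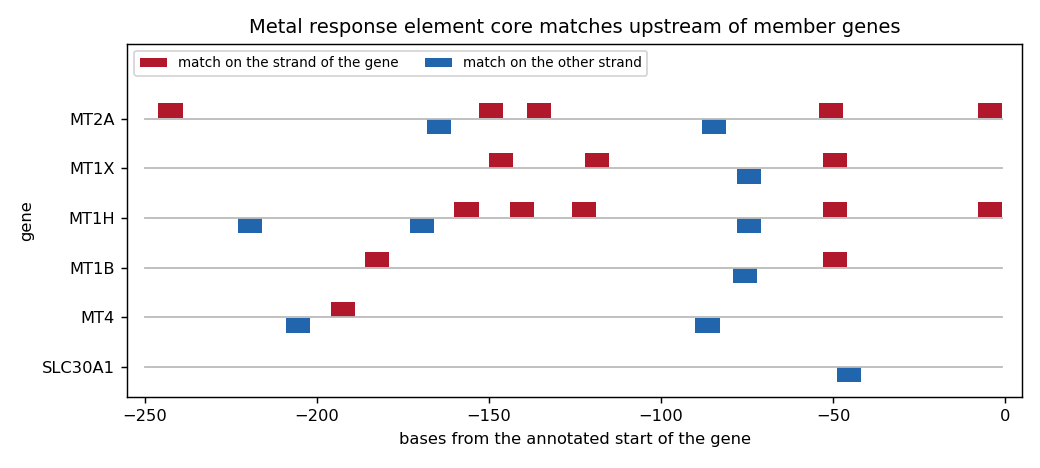
Matches to the metal response element core in the 250 bases before the annotated start of 6 member genes, plotted by distance in bases from the start (horizontal axis). Boxes above a line are matches on the strand of the gene and boxes below it are matches on the other strand; MT2A has 7, MT1X 4, MT1H 8, MT1B and MT4 3 each and SLC30A1 1.

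The arrays were similar in overall signal. Of 24459 probes, 87.2% on the CDR1AS array and 84.4% on the control array exceeded the background limit, which is the mean of 384 blank spots plus 2 SD (72.1 on the CDR1AS array and 69.1 on the control array). A spot intensity is the median brightness in the Cy5 channel as deposited, with the blank level still in it. Log2 ratios are CDR1AS over control after background correction with an offset of 50 and quantile normalization, and they understate the fold of dim genes. Over 16685 genes above the limit on at least 1 array, the median log2 ratio was −0.00, 126 genes (0.755%) were at or past 2-fold higher and 96 (0.575%) at or past 2-fold lower. The only technical repeats were 2 positive-control sequences at 24 positions each. Their log2 ratios between the arrays, taken without offset or normalization, had SDs of 0.09 and 0.19. These SDs are spreads around each sequence's own mean and not distances from 0. For the first sequence the median spot was 43384.5 on the CDR1AS array and 40354 on the control array. For the second it was 10962 on the CDR1AS array and 7444 on the control array. These spots were far brighter than most member spots, and they show nothing of the spread between cultures.

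Of 13 colon epithelial marker genes on the arrays, 12 were above the limit on each array, and their summed deposited values were 31209 on the CDR1AS array and 35239 on the control array. Their log2 ratios went both ways, with 4 above 0 and 8 below and a median of −0.09. TFF3 (−1.08) was past 2-fold lower, CDX2 (−0.82) and EPCAM (−0.54) were lower within 2-fold, and KRT19 (0.83) was the highest. CDH17 was above the limit on the CDR1AS array only and CEACAM5 on the control array only. Of 7 fibroblast markers 4 were measured, with sums of 169 on the CDR1AS array and 182 on the control array, and the collagen genes COL1A1, COL1A2 and COL3A1 were above the limit on neither. Of 6 leukocyte markers 5 were measured, with sums of 252 on the CDR1AS array and 227 on the control array, and PTPRC was above the limit on neither. Of 5 endothelial markers 4 were above the limit on the CDR1AS array and 2 on the control array, with sums of 53.2 on the CDR1AS array and 43.5 on the control array, and TEK was above it on neither. The part of these markers in the results was not tested.

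Of the 11 metallothionein genes above background, 8 (72.7%) were at or past 2-fold higher on the CDR1AS array and 0 were past 2-fold lower, beside 0.755% and 0.575% of all genes measured.

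The MT2A gene encodes metallothionein 2A, a broadly expressed zinc-binding isoform. Its spot intensity was 4879 on the CDR1AS array and 1028 on the control array. The log2 ratio was 2.14, a 4.41-fold higher level, rank 13 from the top of 16685 genes. In the authors' deposited table its values were 2201 on the CDR1AS array and 458.3 on the control array, a 4.80-fold difference. MT2A thus had the highest ratio of the members in the normalized values, while MT1E had it in the deposited table.

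MT1X, which encodes an inducible MT1 isoform, had spots of 364 on the CDR1AS array and 123 on the control array, with a log2 ratio of 1.57. MT1E, another MT1 isoform, had spots of 205 on the CDR1AS array and 90.4 on the control array, with a log2 ratio of 1.22. Both were dim on the control array, at 1.78 and 1.31 times the limit, and their deposited values differed more: MT1X was 4.92-fold and MT1E 5.30-fold higher in the authors' deposited table. An offset lowers the fold of dim spots by its construction, and both scales put the CDR1AS array higher.

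MT1H and MT1B, also MT1 isoforms, gave nearly the same ratio in the main setting. MT1H had spots of 775 on the CDR1AS array and 257 on the control array (log2 ratio 1.52, 2.86-fold). MT1B had spots of 1408 on the CDR1AS array and 465 on the control array (log2 ratio 1.52, 2.87-fold). In that setting their ratios differed from each other by far less than the SD of the repeated control spots. After subtraction of the local background they were further apart than that SD, at 0.54 for MT1H and 0.10 for MT1B.

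The probes annotated to family members outside the main cluster were higher as well. MT1HL1, an MT1H-like gene on chromosome 1, had spots of 2584 on the CDR1AS array and 662 on the control array (log2 ratio 1.87). MT2P1, a pseudogene on chromosome 4, had 2557 on the CDR1AS array and 804 on the control array (1.58), and MT1P3, a pseudogene on chromosome 20, had 1810 on the CDR1AS array and 693 on the control array (1.30). Metallothionein transcripts are close in sequence. The probe sequences were not used here, so signal from the expressed genes on these probes, and on those of the MT1 isoforms, cannot be told apart from their own. The 8 probes past 2-fold are for that reason not 8 independent measurements. Without the 2 annotated pseudogenes, a choice made after seeing the data, 6 of 9 members were past 2-fold and the median log2 ratio was again 1.52.

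The remaining 4 metallothioneins were not past 2-fold. MT1M, an MT1 isoform, had spots of 220 on the CDR1AS array and 139 on the control array, with a log2 ratio of 0.61 and a 1.97-fold higher deposited value. MT1F, another isoform, had 289 on the CDR1AS array and 254 on the control array, with a log2 ratio of 0.07. MT3, known as the growth inhibitory isoform of brain, was the only measured metallothionein below 0, with 588 on the CDR1AS array and 809 on the control array and a log2 ratio of −0.59. On the control array MT1F was at 3.67 and MT3 at 11.7 times the limit. The sign of MT1F was not stable, since its log2 ratio was −0.42 after subtraction of the local background, while MT3 was below 0 in all 8 alternatives. MT4, the isoform of stratified squamous epithelium, had spots of 71.5 on the CDR1AS array and 66.4 on the control array and was not well above background on either.

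Over the 11 measured metallothioneins the median log2 ratio was 1.52 (2.86-fold), with 10 above 0 and 1 below, against a median of −0.00 over all genes. The 8 members past 2-fold ran from 2.33-fold to 4.41-fold, and from 2.66-fold to 5.30-fold in the authors' deposited table, and their ranks ran from 13 to 84 of 16685. Their spots lay in 6 of the 24 blocks of the array, whose median log2 ratios over all probes were −0.01 to 0.01. After subtraction of the local background column, 2 of the 11 were past 2-fold, MT2A (2.16) and MT2P1 (1.56), and the median was 0.54. A stricter filter, which needs 2 times the limit on both arrays, left out MT1E and MT1X, and 6 of the 9 metallothioneins kept were past 2-fold. That column was itself higher on the CDR1AS array around 7 of the 8 spots past 2-fold and around 47.5% of all genes measured. The part of the local background in the result was not tested.

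**Figure D2:**
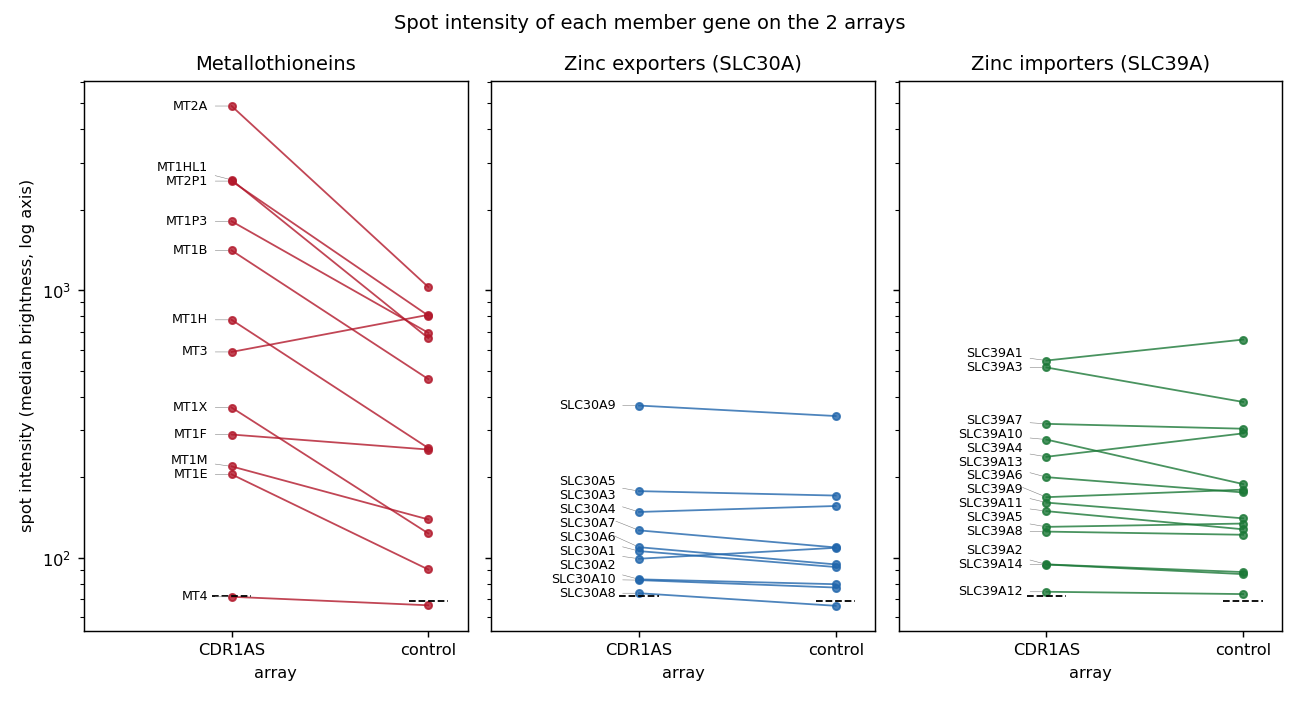
Spot intensity (log axis) of each member gene on the CDR1AS array (left in each panel) and the control array (right), with metallothioneins, zinc exporters and zinc importers in separate panels and the background limits of 72.1 and 69.1 as dashed lines. Each line joins the 2 values of 1 gene and levels of different genes are not comparable; most metallothionein lines slope down toward the control array (4879 on the CDR1AS array and 1028 on the control array for MT2A), and the transporter lines are flatter.

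All exporter genes were within 2-fold. Of 10 measured SLC30A genes, 0 were at or past 2-fold in either direction, against 1.33% of all genes, and the median log2 ratio was 0.01 with 6 above 0 and 4 below. For 8 of them the log2 ratio was smaller in size than 0.19, the larger SD of the repeated control spots. That SD was taken without the offset, which lowers the ratios of dim spots. Of the 8, SLC30A4 (0.33), SLC30A6 (0.41) and SLC30A7 (0.42) were past it in the deposited table. SLC30A2, SLC30A5, SLC30A9 and SLC30A10 by its brighter probe were not, and SLC30A8 had no ratio there. The exporter spots were dim, from 1.02 to 5.14 times the limit on the CDR1AS array and from 0.957 to 4.90 times on the control array. For spots this near to the blanks a small difference was not detectable. The signs of SLC30A3, SLC30A5, SLC30A7 and SLC30A10 changed in at least 1 alternative.

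SLC30A1, the exporter of the plasma membrane, had spots of 99.2 on the CDR1AS array and 109 on the control array. Its log2 ratio was −0.26, the lowest of the exporters, and its deposited value was 1.51-fold lower, at 13.6 on the CDR1AS array and 20.6 on the control array. In these values SLC30A1 was thus lower on the array where MT2A was higher. Its log2 ratio was below 0 in all 7 alternatives that measured it. Its spot minus local background, without normalization, was instead slightly higher on the CDR1AS array. On that scale the median ratio over all genes above their local background on both arrays was 1.25, and SLC30A1 was below it. Of the scales given here, SLC30A1 was therefore higher only on that one, and only with this median left aside. Its spots were dim on both arrays. SLC30A3, the transporter of synaptic vesicles, had spots of 148 on the CDR1AS array and 156 on the control array (−0.19).

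SLC30A5 and SLC30A6 form a heterodimer that loads zinc into the early secretory pathway, and SLC30A7 works in the Golgi. SLC30A5 had spots of 177 on the CDR1AS array and 171 on the control array (−0.05). SLC30A6 had 106 on the CDR1AS array and 92.3 on the control array (0.13), and SLC30A7 had 110 on the CDR1AS array and 94.4 on the control array (0.15), the highest ratio of the exporters. The partners SLC30A5 and SLC30A6 lay on either side of 0, but SLC30A5 was at 0.21 after subtraction of the local background.

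SLC30A4, a transporter of endosomes and vesicles, had spots of 127 on the CDR1AS array and 109 on the control array (0.14). SLC30A9, linked to mitochondrial zinc, had 371 on the CDR1AS array and 339 on the control array (0.02) and was well over the limit. Its control spot was below its local background of 344, and its log2 ratio was 0.77 after subtraction of the local background. SLC30A2, of secretory vesicles, had 83.1 on the CDR1AS array and 79.6 on the control array (−0.02). The manganese exporter SLC30A10 was near the floor by both of its probes (0.01 and −0.04). SLC30A8, of insulin granules, was above the limit on the CDR1AS array only, at 73.7 against 66.1 on the control array, at least 1.01-fold higher. In the main setting these log2 ratios were all smaller in size than the larger SD of the control spots, which was taken without the offset. In the deposited table SLC30A4 was at 0.33 and the dimmer SLC30A10 probe at −0.33, both larger in size than that SD.

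The importer genes went both ways by small amounts. Of 14 measured SLC39A genes, 0 were at or past 2-fold, beside 1.33% of all genes, 7 were above 0 and 7 below, and the median log2 ratio was −0.02. For 9 of them the log2 ratio was smaller in size than 0.19, and the other 5 were SLC39A10, SLC39A3, SLC39A6, SLC39A1 and SLC39A4. That SD was taken without the offset, which lowers the ratios of dim spots. Of the 9, SLC39A12 (−0.54), SLC39A11 (0.31), SLC39A9 (0.23) and SLC39A5 (−0.22) were larger in size in the deposited table. SLC39A13 and SLC39A14 (both 0.19) were about equal to it there, and SLC39A2, SLC39A7 and SLC39A8 were smaller.

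SLC39A10, an importer of the plasma membrane, had the highest ratio of all transporters, with spots of 277 on the CDR1AS array and 189 on the control array and a log2 ratio of 0.47. Its deposited value was 1.62-fold higher. SLC39A6, its known partner in a heteromer, had 168 on the CDR1AS array and 180 on the control array (−0.21), and the partners were on opposite sides of 0 in all 8 alternatives. SLC39A3, another plasma membrane importer, had 514 on the CDR1AS array and 382 on the control array (0.32).

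SLC39A4, the importer of dietary zinc at the intestinal brush border, had spots of 238 on the CDR1AS array and 292 on the control array, and its log2 ratio of −0.42 was the lowest of all transporters. SLC39A1, a widely expressed importer, had 546 on the CDR1AS array and 654 on the control array (−0.40). SLC39A5, of the basolateral membrane of enterocytes, had 130 on the CDR1AS array and 134 on the control array (−0.15). SLC39A4 and SLC39A1 had the lowest ratios of the importers and were below 0 in all 8 alternatives.

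Among importers inside the cell or with other metals, SLC39A7, which releases zinc from the endoplasmic reticulum, had spots of 317 on the CDR1AS array and 304 on the control array (−0.05). SLC39A9, of the Golgi, had 161 on the CDR1AS array and 140 on the control array (0.11), and SLC39A13, also of intracellular membranes, had 200.1 on the CDR1AS array and 175 on the control array (0.09). SLC39A8 and SLC39A14, which also carry manganese, had log2 ratios of −0.07 and 0.05, SLC39A11 had 0.15 and SLC39A2 had 0.02. These 7 genes were within 2-fold in all alternatives, though 6 of them, all but SLC39A11, changed sign in at least 1. SLC39A12 was near the floor by its brighter probe (74.6 on the CDR1AS array and 73.2 on the control array) and not well above background by the other.

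After subtraction of the local background 2 importers passed 2-fold. SLC39A3 was then higher (1.23, against 0.32 in the main setting), with a local background of 296 on the CDR1AS array and 382 on the control array. SLC39A1 was then lower (−1.97, against −0.40 in the main setting), with a local background of 413 on the CDR1AS array and 205 on the control array.

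**Figure D3:**
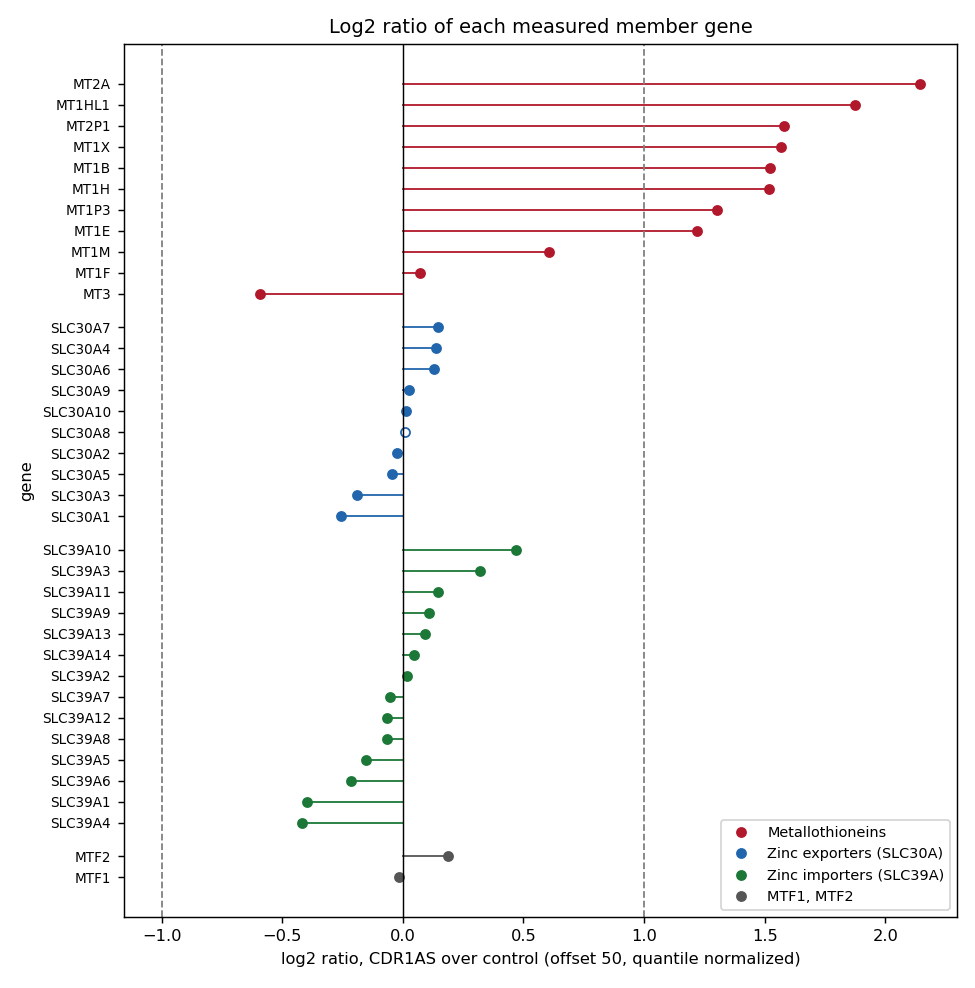
Log2 ratio (CDR1AS over control, horizontal axis) of the 37 measured member genes, grouped by class and ordered within a class. Dashed lines mark 2-fold and the open circle is SLC30A8, above background on the CDR1AS array only; 8 metallothioneins lie past the line, MT1M, MT1F and MT3 lie inside it, and all transporters lie between −0.42 and 0.47.

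The regulator MTF1 had spots of 109 on the CDR1AS array and 103 on the control array, with a log2 ratio of −0.01, whose sign changed between settings, and deposited values of 17.9 on the CDR1AS array and 17.7 on the control array. MTF1 is regulated by zinc binding and localisation, and its activity was not measured. MTF2 shares the name but is a Polycomb protein. It had 390 on the CDR1AS array and 319 on the control array (0.19), and 1.09 after subtraction of the local background.

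Of the measured metallothioneins 8 lie in the cluster on chromosome 16, and 5 of these were past 2-fold. In the order of the RefSeq annotation the cluster ran MT3, MT2A, MT1E, MT1M, MT1B, MT1F, MT1H and MT1X among measured members, so that MT3 and MT1F, which were near or below 0, lie beside and between genes past 2-fold. The 6 nearest measured genes on each side and 1 inside the cluster were chosen after the values were seen. Their median log2 ratio was 0.10, from −0.21 in NUDT21 to 0.53 in RSPRY1, with 10 above 0 and 3 below. Of these 13 genes 0 were past 2-fold, a count near the share of 1.33% of all genes. BBS2, the nearest before MT3, had 0.10, and NUP93, the nearest after MT1X, had 0.25. The 6 nearest measured genes after MT1X were all above 0. All genes past 2-fold in this stretch were metallothioneins.

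SLC39A10 lies on chromosome 2, and its 12 nearest measured genes had a median log2 ratio of 0.10, with 8 above 0 and 4 below. Past 2-fold were 0 of the 12, a count near the share of 1.33% of all genes. The highest were CAVIN2 (0.41), the nearest measured gene on one side, GTF3C3 (0.38) and STK17B (0.35). SLC39A10 (0.47) was above each of these, and the differences from these 3 genes were smaller than the larger SD of the control spots.

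**Figure D4:**
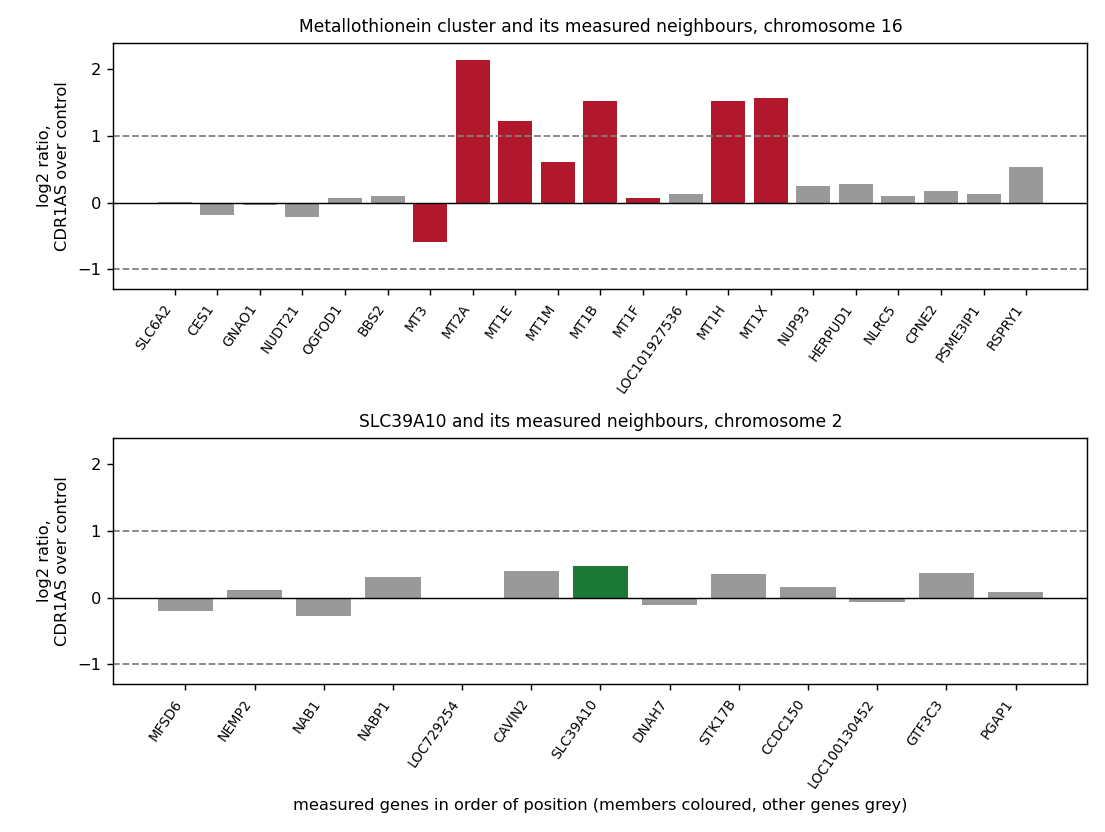
Log2 ratio (CDR1AS over control, vertical axis) of measured genes in order of position around the metallothionein cluster on chromosome 16 (upper panel) and around SLC39A10 on chromosome 2 (lower panel), members coloured and other genes grey, dashed lines at 2-fold. In the upper panel 5 metallothionein bars pass the line and 0 of 13 grey bars do; in the lower panel SLC39A10 at 0.47 stands beside CAVIN2 at 0.41.

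Other genes of metal handling and metal response were read from 5 lists, each set beside the median of −0.00 over all genes. In the list of genes that respond to metals and oxidants, 2 of 14 measured were past 2-fold higher and 0 lower, beside 0.755% and 0.575% of all genes, and the median log2 ratio was 0.18. FTL, the light chain of the iron store ferritin, had spots of 21424 on the CDR1AS array and 7032 on the control array (1.48). TXNRD1, thioredoxin reductase, had 2244 on the CDR1AS array and 959 on the control array (1.13), and its other, dim probe gave 0.03. The heme oxygenase gene HMOX1, a common marker of metal and oxidant stress, had 215 on the CDR1AS array and 145 on the control array (0.51), the glutamate-cysteine ligase subunit gene GCLM had 0.69, and the small selenoprotein gene SELENOW had −0.81. Members of this list thus went both ways. The heat shock genes, which cadmium induces, differed among themselves, with DNAJB1 at 0.55, HSPA1A at −0.19 (−0.05 by its other probe) and HSPA1B at −0.03. HSPA6 was above the limit on the CDR1AS array only, at 73.0 against 66.2 on the control array.

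Of 14 measured copper genes 0 were past 2-fold, a count near the background of 1.33% of all genes, with 5 above 0, 9 below and a median of −0.10. COX17, the copper chaperone of cytochrome c oxidase, was lowest (−0.78), and SLC31A2 (0.52) and the copper chaperone ATOX1 (0.51) were highest. COX11, another assembly factor of that enzyme, had −0.49 by its brightest probe and 0.07 by the other. Of 15 measured iron genes FTL was the 1 past 2-fold, and the median was −0.13. The transferrin receptor gene TFRC had −0.12 and the mitochondrial iron importer gene SLC25A37 had 0.54, the iron reductase gene CYBRD1 had 0.37 and the ferritin autophagy receptor gene NCOA4 had −0.41. Of 11 genes of manganese and magnesium transport 0 were past 2-fold (median −0.02), with ATP2C2 (0.41) and ATP2C1 (0.31), calcium and manganese pumps of the secretory pathway, highest and MAGT1 (−0.35) and TMEM165 (−0.33) lowest.

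Of 9 measured genes that respond to glucocorticoids, 0 were past 2-fold, a share near the 1.33% of all genes, and the median was −0.03. FKBP5 had spots of 207 on the CDR1AS array and 212 on the control array (−0.14) and TSC22D3 had 192 on the CDR1AS array and 211 on the control array (−0.26), while NFKBIA, which NF-kB also induces, was lowest (−0.95). PER1 had 0.29 by its brightest probe and 0.17 by the other, and DUSP1 had 0.17.

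**Figure D5:**
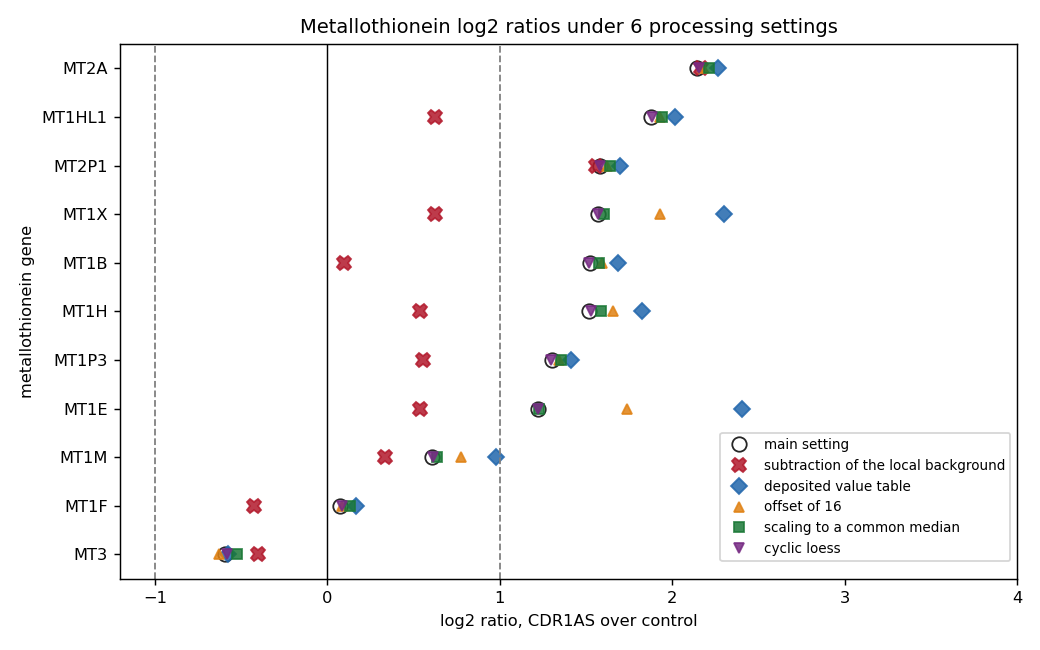
Log2 ratio (CDR1AS over control, horizontal axis) of the 11 measured metallothioneins under 6 processing settings, one symbol per setting, dashed lines at 2-fold. MT2A and MT2P1 stay past 2-fold in each setting, the other 6 genes past 2-fold in the main setting fall to between 0.10 and 0.62 after subtraction of the local background, and MT3 stays below 0.

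Across settings MT2A ran from 2.14 to 2.26 and MT2P1 from 1.56 to 1.70, both past 2-fold throughout. MT1B had the widest drop, to 0.10 after subtraction of the local background, where its local background was 707 on the CDR1AS array and 132 on the control array. The plain ratio of spot minus local background, without normalization, was 10.1 for MT2A, 6.37 for MT1E and 2.10 for MT1B, with a median of 3.31 over the 11 members. It was lowest for MT1F (1.16) and MT3 (1.38), so that MT3 was above 1 on this scale. Over all genes above their local background on both arrays that median was 1.25, and it was 1.82 over 3069 genes that were more than 5 times the limit on both arrays.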

How the data were processed

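Total RNA of 2 SW620 cultures was measured on 2 one-colour arrays, 1 per group. Per the file headers, each deposited intensity is a spot's median Cy5 brightness from scans at 3 gains, and the rule that joins the gains was not stated there. The authors' deposited value table holds an intensity on a linear scale that is a straight line of each spot file's intensity (largest residual 0.0559), with its zero near the blank spots and a median of 25 on each array.

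From these, background was corrected with limma 3.58.1 (R 4.3.3) by normexp without the local background, with an offset of 50, followed by quantile normalization and log2. A probe was above background past the mean plus 2 SD of the blanks, a gene was taken by its brightest probe, and 2-fold served as the size rule. Alternatives were local background subtraction, an offset of 16, median scaling, cyclic loess, the deposited table, no or a stricter filter, and the median of a gene's probes. Steps were tested on simulated data with set changes. Recovery of a set change was required only where both spots were far over the offset, so that requirement did not cover dim genes. Gene symbols came from the platform annotation; all 40 member probes matched RefSeq by gene identifier. Members and lists were chosen with earlier results of these data known. The text names all members and, from each of the 5 metal and glucocorticoid lists, genes past 2-fold and the 4 largest ratios by size. HMOX1, DNAJB1, HSPA1A, HSPA1B, HSPA6, TFRC, FKBP5, the neighbouring genes and the named cell type markers fall outside that rule and were chosen after their values were seen. With 1 array per group there is no test, and precision is limited by having 2 arrays.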

Additional observations from a re-analysis of the deposited data

How the results depend on the processing

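The metallothionein median (1.52) ran from 1.41 to 1.70 in 7 of the 8 alternatives and was 0.54 after subtraction of the local background. The count of member genes past 2-fold higher (8) was then 4 and that of lower genes (0) was 1; in the other alternatives the counts were 6 to 8 and 0. The exporter and importer medians stayed between −0.05 and 0.08 in all alternatives. Over all genes, 222 were past 2-fold in the main setting, 1276 after subtraction of the local background, 904 in the deposited table, 401 with an offset of 16 and 140 with the stricter filter, which left 7398 genes. Apart from that filter, the cause of these shifts was not tested. Of the single member values, 15 of metallothioneins, 7 of exporters, 8 of importers and 1 of MTF genes moved by more than 0.19, against 71, 65, 98 and 14 that did not, and 0 values past 2-fold changed sign. No paired analysis was possible because each group was 1 array, and for the same reason no replicate could be left out. Signal over background limits the transporters: 3 of 10 exporters and 8 of 14 importers were at 2 times the limit or more on both arrays.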
